A study of Mus musculus with 10 samples.

Results

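The genes described here are Mt1, Mt2, Slc30a1 and Mtf1, 4 of the 18292 gene symbols counted in single microglia of C57BL/6 mice. They were taken by symbol from the count tables of all 10 libraries, and all 4 had counts in every library. Mt1 and Mt2 were chosen by their measured levels, since they lead a subset of slice cells in these data, so their levels in slice libraries are a description and carry no test. Slc30a1 and Mtf1, and the comparison of in vitro with adult cells for all 4 genes, are tested.

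Metallothioneins are small, cysteine-rich proteins that bind zinc and copper ions in the cytoplasm. Free zinc in the cytoplasm is sensed by MTF1, the metal-responsive transcription factor encoded by Mtf1, which binds metal response elements in promoters and raises transcription of Mt1, Mt2 and Slc30a1. Slc30a1 encodes ZnT1, the transporter that carries zinc out of the cell across the plasma membrane. In brain, Mt1 and Mt2 are abundant in astrocytes, and a related gene, Mt3, is known from astrocytes and neurons.

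Microglia, the resident macrophages of brain, were sorted as live cells with high CD11b and intermediate CD45 and profiled by 10x Genomics 3' counting in 5 groups of 2 libraries. Adult libraries came from whole brains of young adult mice. In vitro libraries came from mixed glial cultures of neonatal cortex, and were collected from the culture medium after 3 weeks. Slice libraries came from coronal brain slices of newborn pups, with cerebellum and olfactory bulbs removed, kept on membrane inserts in medium with horse serum and hPDGF, a growth factor, for 1 day, 1 week or 3 weeks. The labels give no transgene or drug for any group, slices were pooled as needed for a library, and the groups differ in age and in brain region as well as in culture. The labels do not say whether 2 libraries of a group came from separate animals, so p-values measure the spread between these libraries, which may be technical.

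The files held 19637 cell barcodes, 68 to 3834 per library where the labels state an input of about 1000 cells, and 19059 passed the limits on mitochondrial UMIs, genes and UMIs per cell that the study's methods state. The study also screened for outlying cells by t-SNE, a step not repeated here, and the cells kept here outnumber those it states. S100a8/S100a9-rich cells were kept. The slice 1 week libraries kept 148 and 61 cells, and all others kept 518 to 3799. For the slice 1 week libraries the study states fewer cells, so levels at 1 week rest on a set of cells other than the study's. Total counts ran from 385373 to 39689540 unique molecular identifiers (UMIs, each standing for 1 captured RNA molecule) per library, and the median per cell was 1858 and 3257 in adult, 12858 and 13966 in vitro, and 5266 to 8335 in slices. A total of 218 of 18840 distinct barcode sequences occurred in more than 1 library, at most 3.28% of the smaller of any 2. All 10 microglial markers checked had counts in every library, with a summed level of 25145 and 25288 CPM (counts scaled to the size of the library) in adult libraries and 4010 to 10602 elsewhere. Neutrophil markers summed to 7637, 20136, 33661 and 952 CPM in the slice 1 day and slice 1 week libraries and to at most 8.23 CPM in all others. The 5 border macrophage markers summed to 2263 and 2123 CPM in vitro, 45.3 to 314 CPM in slices and 5.74 and 10.7 CPM in adult.

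In the mouse genome (GRCm38) Mt2 lies at chr8:94172664-94173568 and Mt1 just after it at chr8:94179082-94180327, both on the plus strand, with Mt1 starting 5514 bases after Mt2 ends. Slc30a1 lies at chr1:191906767-191913247 and Mtf1 at chr4:124802104-124849800, also on the plus strand. Mt2, Slc30a1 and Mtf1 each overlap an annotated gene on the minus strand, and the counting of strand is not given in the sources used here. The stretches before the start sites of Mt1, Mt2 and Slc30a1 are printed because they hold the metal response element cores through which MTF1 acts. Capitals mark matches, on either strand, to the core written TGCACNC or TGCGCNC, and the sequences are RefSeq promoter windows of GRCm38.

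Mt1, chr8:94178839-94179081, plus strand: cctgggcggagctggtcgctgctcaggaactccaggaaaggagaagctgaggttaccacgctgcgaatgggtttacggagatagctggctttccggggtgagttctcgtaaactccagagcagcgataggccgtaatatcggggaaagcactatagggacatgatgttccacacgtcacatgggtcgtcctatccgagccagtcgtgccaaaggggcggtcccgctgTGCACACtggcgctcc

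Mt2, chr8:94172368-94172617, plus strand: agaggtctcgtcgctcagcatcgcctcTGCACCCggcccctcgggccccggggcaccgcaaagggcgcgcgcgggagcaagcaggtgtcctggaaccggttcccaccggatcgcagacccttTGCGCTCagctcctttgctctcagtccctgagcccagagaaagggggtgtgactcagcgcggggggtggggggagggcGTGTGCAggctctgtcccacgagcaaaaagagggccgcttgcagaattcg

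Slc30a1, chr1:191906531-191906766, plus strand: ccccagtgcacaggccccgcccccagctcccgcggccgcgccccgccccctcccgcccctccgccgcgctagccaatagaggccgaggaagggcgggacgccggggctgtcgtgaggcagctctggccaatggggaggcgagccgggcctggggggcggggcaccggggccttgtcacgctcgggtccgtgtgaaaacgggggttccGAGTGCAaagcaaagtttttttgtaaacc

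From the RefSeq start of Mt1, which lies inside the gene's annotated span, 28 bases at chr8:94179089-94179116 held a further pair of cores. Annotated Mt1 transcripts also start at chr8:94179211 and chr8:94179241. Those starts lie after this pair and past the window scanned below.

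Mt1, from the RefSeq start: tcTGCACTCcgcccgaaaagTGCGCTCg

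In windows of 300 bases, 250 before and 50 after the RefSeq start, Mt1 held 3 cores, Mt2 held 4, Slc30a1 held 2 and Mtf1 held 0. Over 32851 promoters, 25.7% held at least 1 core, 7.11% at least 2, 1.97% at least 3 and 0.517% at least 4. A match of letters is a description and not a bound site. The window of Mt2 and that of Slc30a1 each also held 1 antioxidant response element core, TGACNNNGC, which 12.4% of all promoters contain, and those of Mt1 and Mtf1 held 0. None of the matches to TGACNNNGC overlapped a metal response element core.

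Mt1 was an abundant transcript in every group and was lowest in adult cells. Its level, as CPM after TMM scaling (library size corrected by trimmed means, so that most genes do not shift), was 215 and 259 in the adult libraries. In vitro it was 1028 and 1059. Among slices, those of 1 day stood at 1565 and 1602, those of 1 week at 1086 and 928 and those of 3 weeks at 685 and 1090. Both adult libraries thus lay below all 8 cultured ones, and both slice 1 day libraries lay above all others. By rank of level among all genes Mt1 stood at 466 and 582 in adult libraries and between 106 and 211 in the cultured libraries.

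Mt2 spanned a wider range between the groups than Mt1. It was at 5.12 and 4.76 CPM in adult libraries, from 70 and 37 UMIs. In vitro it reached 65.9 and 94.7 CPM. Among slices, those of 1 day stood at 361 and 374 CPM, those of 1 week at 352 and 118 CPM and those of 3 weeks at 73.9 and 272 CPM. The adult libraries did not overlap with any other group, whereas in vitro libraries overlapped with slice 3 weeks. Replicates lay close together in adult and slice 1 day cells and far apart in slice 1 week and slice 3 weeks cells.

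**Figure D1:**
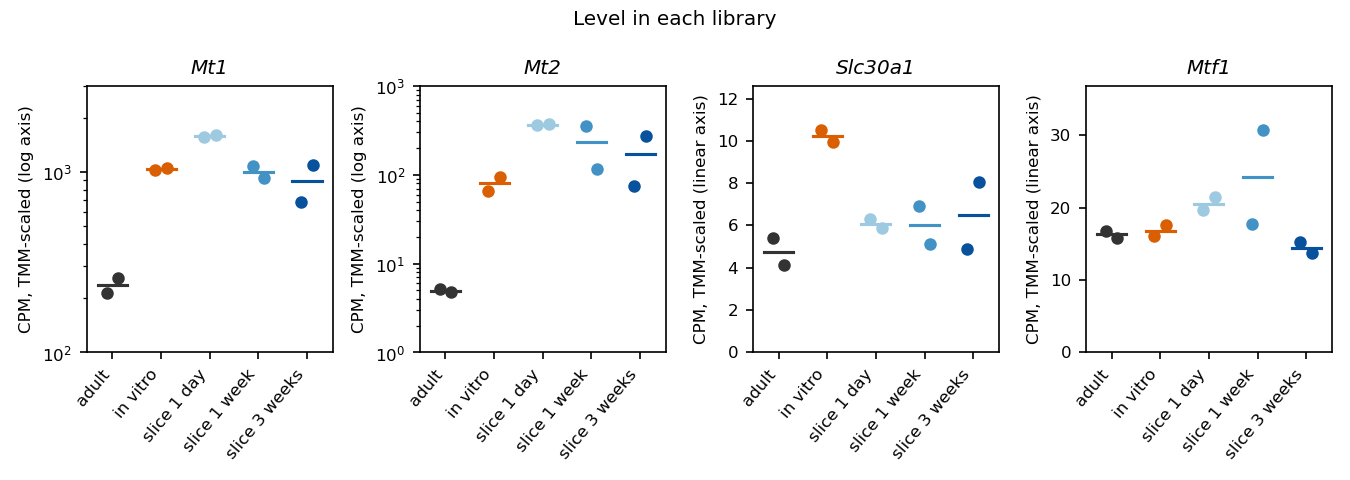
Level of Mt1, Mt2, Slc30a1 and Mtf1 in CPM after TMM scaling (vertical axes, logarithmic for Mt1 and Mt2 and linear from 0 for Slc30a1 and Mtf1) by group. Each point is a library (n = 2 per group) and each bar a group mean. Mt2 lies at 4.76 and 5.12 CPM in adult libraries and at 65.9 CPM or more in all others.

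In vitro cells were compared with adult cells, from which they differ in age and brain region as well as in culture. Mt1 was 4.40-fold higher in vitro (log2 fold change 2.14 ± 0.22, SE, edgeR quasi-likelihood test with Benjamini-Hochberg adjustment, adjusted p = 1.69e-05). Mt2 was 16.2-fold higher (4.01 ± 0.63, adjusted p = 0.000347). Slc30a1, at 5.42 and 4.12 CPM in adult and 10.5 and 9.93 CPM in vitro, was 2.11-fold higher (1.08 ± 0.27, adjusted p = 0.0057). Mtf1, at 16.8 and 15.8 CPM in adult and 16.1 and 17.6 CPM in vitro, gave 0.04 ± 0.18 (adjusted p = 0.864). The 2 Slc30a1 groups did not overlap and the 2 Mtf1 groups did. Thus Mt1, Mt2 and Slc30a1 were called higher (adjusted p under 0.05 and fold change over 1.5). The comparison called 22.4% of 12157 tested genes higher and 50.8% in either direction. Mt1 and Mt2 were chosen by their levels in slice cells, so their calls do not count for the set. Of the 2 other genes 1, Slc30a1, was called. Mt1, Mt2 and the exporter were higher together, and the sensor gene did not pass the test.

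With the adult library of the other study code left out, so that all libraries compared shared a code, Slc30a1 was at 1.40 ± 0.36 (adjusted p = 0.0122), Mt1 at 2.11 and Mt2 at 4.17. The adult group is then 1 library with 32 Slc30a1 UMIs, assumed to vary as the other groups do. Border macrophage markers were higher in vitro, and neutrophil markers summed to at most 8.23 CPM in both groups. The part of these in the result was not tested.

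Levels in slices against adult are given for Mt1 and Mt2 as a description. At 1 day Mt1 was at a log2 difference of 2.74 ± 0.22 and Mt2 at 6.21 ± 0.68, that is 6.68-fold and 74.0-fold. The log2 differences were 2.09 ± 0.22 for Mt1 and 5.62 ± 0.68 for Mt2 after 1 week, and 1.91 ± 0.21 and 5.13 ± 0.65 after 3 weeks. The Mt2 values depended on single libraries, at 4.59 without slice 1 week replicate 1 and 6.11 without replicate 2, and at 5.81 without slice 3 weeks replicate 1 and 3.95 without replicate 2. Every slice library lay above both adult libraries in both genes, which were chosen for their levels in slice cells. Of all genes, 50.2% were called in either direction against adult at 1 day, 28.6% at 1 week and 35.4% at 3 weeks. Between 3 weeks and 1 day Mt1 differed by -0.83 ± 0.21 and Mt2 by -1.08 ± 0.53 on the log2 scale. The size of the Mt2 difference depended on the slice 3 weeks library used, at -0.44 without slice 3 weeks replicate 1 and -2.30 without replicate 2. In such summed counts, fewer cells with a transcript and less of it per cell cannot be told apart.

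The order of group levels was slice 1 day, in vitro, slice 1 week, slice 3 weeks and adult for Mt1. Of its neighbours, slice 1 day lay above in vitro by 0.60 ± 0.21 on the log2 scale, and in vitro and slice 1 week differed by 0.05 ± 0.21 and slice 1 week and slice 3 weeks by 0.18 ± 0.21, within their spread. For Mt2 the order was slice 1 day, slice 1 week, slice 3 weeks, in vitro and adult, and the first 3 differed from the next by 0.59 ± 0.55, 0.49 ± 0.55 and 1.11 ± 0.53. The place of in vitro below slice 3 weeks turned on 1 library, since in vitro against slice 3 weeks was at 0.18 without slice 3 weeks replicate 2 and -1.68 without replicate 1. These differences are descriptions.

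Slc30a1, the zinc exporter, was a low-abundance transcript, with 2 to 354 UMIs in a library. Slices held it at 6.28 and 5.87 CPM after 1 day, 6.91 and 5.11 CPM (7 and 2 UMIs) after 1 week and 4.91 and 8.05 CPM after 3 weeks. Against adult, Slc30a1 was at 0.32 ± 0.30 (adjusted p = 0.382) at 1 day, 0.40 ± 0.49 (adjusted p = 0.620) at 1 week and 0.47 ± 0.28 (adjusted p = 0.210) at 3 weeks on the log2 scale by edgeR. Both in vitro libraries lay above all slice and adult libraries, and adult libraries overlapped with slice 1 week and slice 3 weeks. In vitro against slice 3 weeks the difference was 0.61 ± 0.26 (adjusted p = 0.0821), and against slice 1 day it was 0.76 ± 0.28 (adjusted p = 0.0547), where 31.9% of all genes were called, 13.3% higher and 18.6% lower. At 1 week the depth allowed no firm statement, since the log2 difference from adult ± 2 SE spanned -0.59 to 1.39.

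Mtf1, the sensor, passed the test in none of the 6 main comparisons by edgeR. Slices held it at 19.6 and 21.5 CPM after 1 day, 17.8 and 30.7 CPM after 1 week (18 and 12 UMIs), and 15.3 and 13.7 CPM after 3 weeks. Against adult it was at 0.34 ± 0.19 (adjusted p = 0.158) at 1 day, 0.43 ± 0.27 (adjusted p = 0.319) at 1 week and -0.18 ± 0.19 (adjusted p = 0.470) at 3 weeks by edgeR. Slice 3 weeks lay below slice 1 day by a log2 difference of -0.52 ± 0.19 (adjusted p = 0.0633), with no overlap of libraries. In order of mean level the groups ran slice 1 week, slice 1 day, in vitro, adult and slice 3 weeks, and no neighbouring pair differed past the threshold. The place of slice 1 week rests on its replicate 2, without which Mtf1 was at 0.083 against adult, and at 0.94 without replicate 1.

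Of Slc30a1 and Mtf1, 0 of 2 were called by edgeR in slices against adult at 1 day, 1 week or 3 weeks, where 50.2%, 28.6% and 35.4% of all genes were called. At an unadjusted p under 0.05 the count was 0 of 2 in each, and DESeq2 called 0 of 2 in each. The count depended on slice 3 weeks replicate 1, since without it Slc30a1 was called against adult (0.77, edgeR adjusted p = 0.0231) and without replicate 2 it was at 0.073. In slice 3 weeks against slice 1 day (26.7% of all genes called, 13.9% higher and 12.8% lower) edgeR and DESeq2 called 0 of 2, and 1, Mtf1, had an unadjusted p under 0.05 in both. Without slice 3 weeks replicate 1 Mtf1 was called lower than in slice 1 day (-0.60, edgeR adjusted p = 0.0397). In vitro against slice 3 weeks (33.2% of all genes called) edgeR and DESeq2 called 0 of 2, and Slc30a1 had an unadjusted p under 0.05 by edgeR only. Without slice 3 weeks replicate 2 Slc30a1 was called higher in vitro (1.12, edgeR adjusted p = 0.0107). Each of these fits leaves slice 3 weeks with 1 library, assumed to vary as the other groups do. Slice 3 weeks replicate 1 and adult replicate 1 share a study code that no other library has. Dependence on the library and on its code therefore cannot be told apart.

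The balance of the 2 metallothioneins shifted between the groups. UMIs are counted once per captured molecule at the 3' end, so the ratio of Mt1 to Mt2 needs no length correction, though capture may differ between the genes. Adult libraries held 42.0 and 54.4 Mt1 UMIs for each Mt2 UMI, in vitro libraries 15.6 and 11.2, and slice libraries 4.33 and 4.28 (1 day), 3.09 and 7.89 (1 week) and 9.27 and 4.01 (3 weeks). Mt2 thus gave 2.33% and 1.80% of the UMIs of both genes in adult libraries, 6.03% and 8.21% in vitro and 9.74% to 24.5% in slices. No slice library overlapped with any in vitro or adult library in this ratio.

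**Figure D2:**
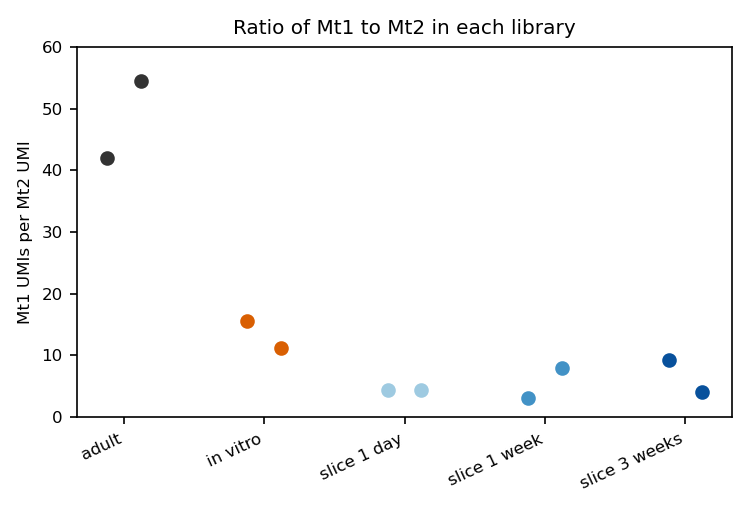
Mt1 UMIs for each Mt2 UMI (vertical axis, linear from 0) in each of the 10 libraries by group. Each point is a library. The ratio is 42.0 and 54.4 in adult, 15.6 and 11.2 in vitro and 3.09 to 9.27 in slices.

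Single cells showed how these totals were spread. In adult libraries 45.8% and 39.0% of cells had an Mt1 UMI, in vitro 98.3% and 99.1%, and in slices 75.4% to 94.97%. Since cells differed in depth between groups, each was also thinned to 1800 UMIs, which left out 413 and 1618 adult cells, 0 in vitro and 0 to 51 per slice library. Thinned, the shares with an Mt1 UMI were 32.6% and 41.9% in adult, 71.1% and 73.2% in vitro and 56.3% to 72.5% in slices. For Mt2 the thinned shares were 0.945% and 0.681% in adult, 6.37% and 10.4% in vitro, and 22.2%, 28.9%, 25.2%, 21.2%, 7.52% and 13.1% in the slice libraries from 1 day to 3 weeks. No cell class in these libraries is known to lack Mt1, so a background level from free RNA was not measured.

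The spread of metallothionein RNA over cells differed between the slice libraries. In the tenth of thinned cells with most Mt1 and Mt2 UMIs lay 63.9% and 62.8% of all their UMIs in slices of 1 day, 68.9% and 46.2% in those of 1 week and 46.3% and 67.5% in those of 3 weeks. Without thinning the shares were 56.4% and 54.5%, 53.6% and 50.6%, and 43.9% and 66.5%. In slice 1 week replicate 1 a single thinned cell held 158 of these UMIs. The tenth held 39.0% and 34.3% in vitro and 48.7% and 41.4% in adult, where most cells had 0 or 1 UMI. Thinned cells with at least 20 such UMIs made up 5.89% and 5.82% of slice 1 day cells (29 and 59 cells), 2.88% of slice 1 week replicate 1 (4 cells), and 0.354% and 2.30% of slice 3 weeks cells (4 and 85 cells). In slice 1 week replicate 2 it was 0 of 52 cells, which allows a share of up to 5.77%. The shares were 0.290% and 0.261% in vitro (7 cells each), and in adult it was 0 of 3386 and 0 of 1909 cells, which allows shares of up to 0.0886% and 0.157%. These limits cover counting error only. Without thinning a single slice 3 weeks cell held 783 Mt1 and Mt2 UMIs, while the highest adult cell held 17. At the median, thinned cells held 0 in adult, 1 in vitro, and 1 or 2 in slices.

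**Figure D3:**
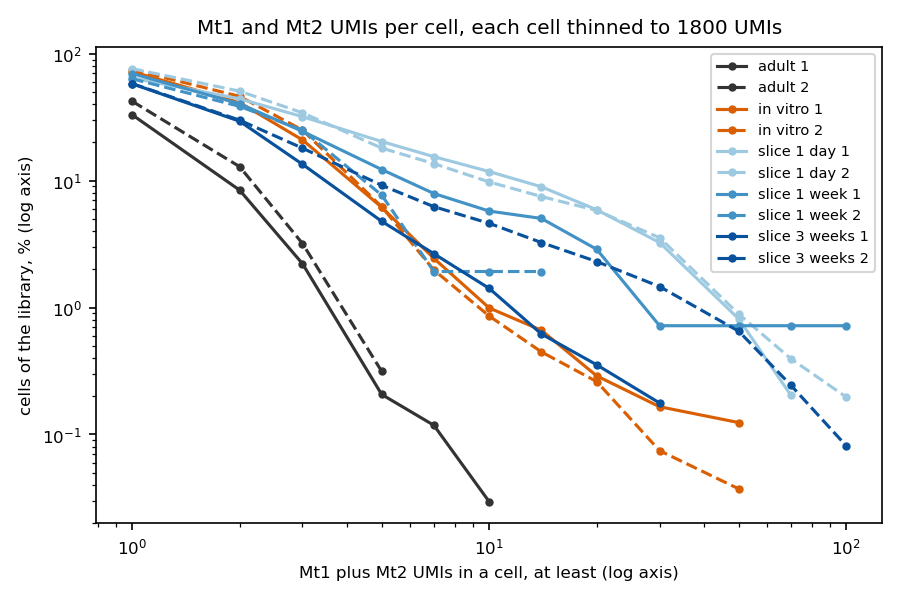
Share of thinned cells (vertical axis, %, logarithmic) with at least the given number of Mt1 and Mt2 UMIs (horizontal axis, logarithmic), one line per library, solid for replicate 1 and broken for replicate 2. Shares of 0 are not drawn. At 20 UMIs or more lie 5.89% and 5.82% of slice 1 day cells, 2.88% of slice 1 week replicate 1 and 2.30% of slice 3 weeks replicate 2, and adult lines end at 10 UMIs or fewer.

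The levels of Mt1 and Mt2 in single cells were also set against each other. Over thinned cells the Pearson correlation of log2(UMIs + 1) between the genes was 0.72 and 0.67 (1 day), 0.68 and 0.62 (1 week) and 0.38 and 0.64 (3 weeks) in slices, 0.26 and 0.24 in vitro and 0.08 and 0.05 in adult. These are descriptions over cells of a library, for genes chosen because they lead a slice subset, and Mt2 had a UMI in under 1% of thinned adult cells, which limits the correlation there. In slice 1 day replicate 2, 34.7% of thinned cells with an Mt1 UMI also had an Mt2 UMI, against 13.6% of those without, and in adult replicate 1 it was 1.45% against 0.701%.

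Genes were also ranked by their likeness to Mt1 and Mt2 from cell to cell in slices. After Mt1 and Mt2 themselves, the highest median correlations with their summed UMIs over the 5 slice libraries with at least 100 cells were those of Mif (0.45), a cytokine, Tpi1 (0.44), Gapdh (0.42), Hmox1 (0.41), which degrades haem, Eno1 (0.41), Ldha (0.41), Pgam1 (0.38) and Bnip3 (0.38), a mitochondrial protein induced by low oxygen. Tpi1, Gapdh, Eno1, Ldha and Pgam1 encode glycolytic enzymes. The correlations of these 8 genes ran from 0.07 to 0.56 in those slice libraries, by which they were chosen. All cells of a library share its preparation, and no p-value is given. The lowest value among 2951 genes was that of Malat1, a nuclear RNA, at -0.37.

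Groups of cells set by other genes showed where the metallothioneins lay. In the top tertile of each slice library's cells by P2ry12, Tmem119 and Selplg, genes of resting microglia, Mt1 was at 763, 1047, 616, 972, 395 and 381 CPM from 1 day to 3 weeks, and in the bottom tertile it was at 2715, 2228, 1915, 434, 959 and 2025 CPM. It was therefore lower in the resting tertile in 5 of 6 libraries, by a ratio of 0.19 to 0.47, and higher, at 2.24, in slice 1 week replicate 2, which had 21 and 20 cells in the tertiles. Mt2 had ratios of 0.04 to 0.32 in the same 5 libraries and 1.38 in slice 1 week replicate 2, from 18 and 8 UMIs. In adult libraries the Mt1 ratio was 0.74 and 0.85 and in vitro 0.82 and 0.91.

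Proliferating slice cells (at least 2 of Mki67, Top2a, Birc5, Cdk1 and Ccna2 with a UMI) had less Mt1 in 4 of 4 libraries with enough cells, at ratios of 0.59 to 0.81, and less Mt2, at 0.29 to 0.71. In vitro the Mt1 ratios were 1.07 and 1.15. Gpnmb-positive slice cells had more Mt1 in 5 of 5 libraries, at ratios of 1.17 to 1.52, and more Mt2, at 1.298 to 2.15. Gpnmb marks lipid-laden and disease-associated macrophages. The tenth of slice cells lowest in Malat1 had 1.84 to 3.15 times the Mt1 of the rest in 4 of 4 libraries and 1.47 to 3.84 times the Mt2, while its Slc30a1 ratio was 0 to 0.57. Malat1 is a nuclear RNA, and the part of a cell's nuclear RNA content in this result was not tested.

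S100a8/S100a9-rich cells, those with at least 0.5% of their UMIs from these neutrophil genes, were found in enough numbers in 3 slice libraries, 73 and 156 cells at 1 day and 47 at 1 week. They held less Mt1 than the remaining cells, at 203 against 1711, 895 against 1718 and 693 against 1127 CPM, and less Mt2, at 20.9 against 396, 205 against 402 and 238 against 360 CPM. Without them, an alternative chosen after seeing the data, the log2 difference between slice 1 day and adult was 2.80 for Mt1 and 6.27 for Mt2.

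**Figure D4:**
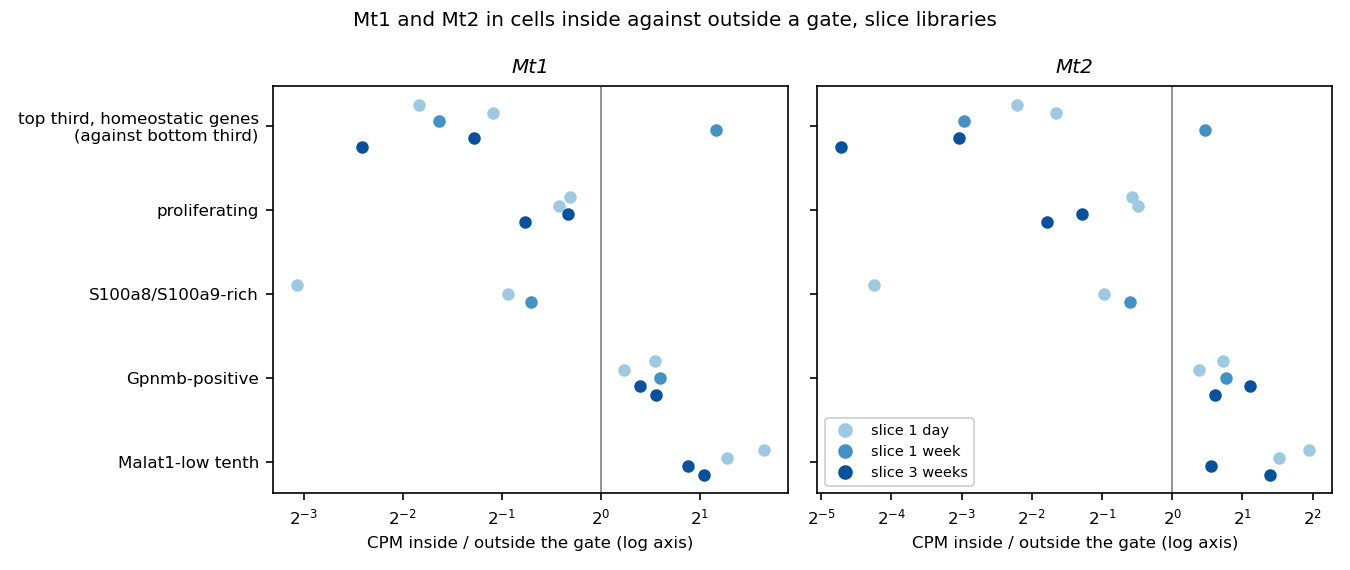
Ratio of Mt1 and Mt2 CPM in cells inside to those outside a gate (horizontal axis, logarithmic to base 2) for slice libraries with at least 20 cells on both sides, one point per library. Points left of 1 are lower inside the gate. Proliferating cells lie left of 1 in 4 of 4 libraries and Malat1-low cells right of 1 in 4 of 4.

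The markers of astrocytes, which express Mt1 and Mt2 strongly, were summed, and also tested gene by gene. The 8 astrocyte markers summed to 154 and 151 CPM in adult libraries, 6.89 and 9.10 in vitro and 10.2 to 39.0 in slices. Slc1a3, a glutamate transporter, gave 150 and 147 CPM of the adult sums, so that the sum follows this gene. Gfap, the astrocyte filament protein, was at 0.0807 and 0.147 CPM in adult, 0.442 and 0.151 in vitro and 0.819 to 18.2 in slices, and Aqp4, the astrocyte water channel, was at 0 in every library but adult replicate 1. In slice libraries the top and bottom tertiles of cells by Mt1 and Mt2 differed in Gfap without a common direction, higher in 3 and lower in 3 of 6. Aldoc, a glycolytic enzyme abundant in astrocytes, was higher in the top tertile in 3 and lower in 1 of the 4 libraries that give a ratio, at 0.55 to 4.35, from 2 to 23 UMIs in the top tertile and 3 to 5 in the bottom one. Of 6 markers tested by edgeR, Slc1a3 fell in each of the 4 culture groups against adult, and 2 rose in each, Aldoc and Aldh1l1 in vitro, Gfap and Gja1 in slices of 1 day, Gfap and Aldoc in those of 1 week and Gfap and S100b in those of 3 weeks. Of all genes, 22.4%, 24.9%, 15.0% and 17.9% were called higher and 28.5%, 25.3%, 13.6% and 17.5% lower in the same comparisons. The part of astrocyte RNA in the result was not tested.

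Mt3, the third metallothionein counted here, was at 4.46 and 0.257 CPM in adult (61 and 2 UMIs, in 15 and 2 cells), 0.225 and 0.280 in vitro, and in slices 1.57 and 2.37 (1 day), 9.88 and 7.67 (1 week) and 0.905 and 2.47 (3 weeks). It was lower in vitro than in adult (-3.29 ± 0.89 log2, edgeR adjusted p = 0.00921), though adult replicate 2 lay between the in vitro libraries. Mt4 is not analysed here.

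The other zinc transporters were tested gene by gene and counted by family. Of 5 tested exporters of the Slc30 family other than Slc30a1, 0 rose and 2, Slc30a6 and Slc30a7, fell in vitro against adult, where 22.4% of all genes were called higher and 28.5% lower, with a median log2 fold change of -0.56 beside -0.11 for all genes. Both take part in zinc transport into the secretory pathway. In slices against adult, edgeR and DESeq2 called 0 of 5 in either direction at each of the 3 times, where edgeR called 50.2%, 28.6% and 35.4% of all genes. At an unadjusted p under 0.05 edgeR had 0 after 1 day, 1 lower after 1 week and 1 higher after 3 weeks.

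Of 13 tested importers of the Slc39 family, which bring zinc into the cytoplasm, 0 rose and 5 fell in vitro against adult by edgeR and by DESeq2, with 1 higher at an unadjusted p under 0.05 in each. By edgeR, 2 rose and 3 fell in slices of 1 day, 2 rose and 3 fell in those of 1 week, and 3 rose and 2 fell in those of 3 weeks. Of all genes, 22.4% were called higher and 28.5% lower in vitro, 24.9% and 25.3% in slices of 1 day, 15.0% and 13.6% in those of 1 week and 17.9% and 17.5% in those of 3 weeks. The list medians were -0.58, -0.17, -0.42 and -0.08 beside -0.11, -0.06, -0.08 and -0.03 for all genes. Slc39a14, the transporter ZIP14 that takes up zinc, iron and manganese, rose in slices at all times, from 3.95 and 2.06 CPM in adult to 42.2 and 52.6 CPM at 1 day (3.92 ± 0.32 log2, adjusted p = 6.80e-06), 15.8 and 15.3 CPM after 1 week (2.31 ± 0.49, adjusted p = 0.00567) and 24.8 and 15.4 CPM at 3 weeks (2.65 ± 0.32, adjusted p = 0.000137), and was at 4.11 and 4.88 CPM in vitro (0.51 ± 0.32, adjusted p = 0.195). Its in vitro level was lower than that of slice 3 weeks (-2.14 ± 0.28, edgeR adjusted p = 0.00027), in a comparison that called 13.3% of genes higher and 19.9% lower. Within slice libraries the level of Slc39a14 was lower in the top tertile of cells by Mt1 and Mt2 in 5 of 6 libraries, higher in the resting tertile in 5 of the 5 libraries where a ratio exists, and lower in Malat1-low cells in 4 of 4, at ratios of 0.035 to 0.34.

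Slc39a12, another importer, was at 10.8 and 7.98 CPM in adult, 0.642 and 0.393 in vitro and 0 to 0.262 in slices, and fell in every culture group against adult, in vitro by 4.17 ± 0.48 on the log2 scale (adjusted p = 7.03e-05). At 1 week it was at 0 in both libraries, which is at least 4.56-fold lower when 3 counts over the group are set as a floor. Slc39a2 fell in vitro (-3.10 ± 0.84, adjusted p = 0.00969) and rose at 3 weeks in slices (3.00 ± 0.60, adjusted p = 0.00281), from 0.805 and 0.901 CPM in adult to 3.36 and 9.77 CPM.

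**Figure D5:**
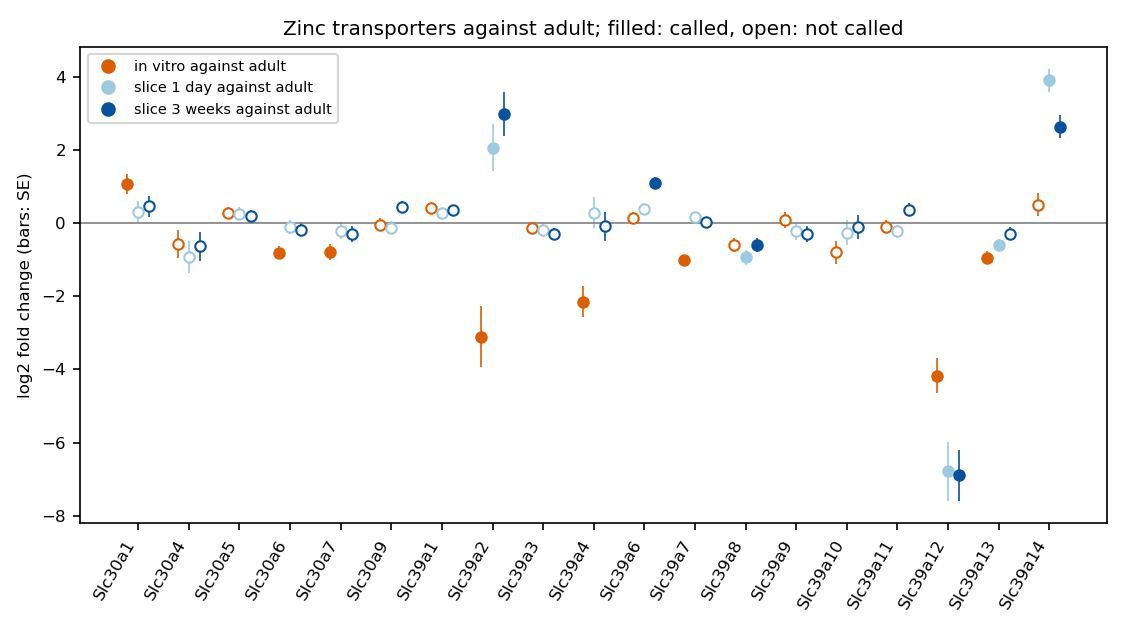
Log2 fold change against adult (vertical axis, bars are SE) of the tested Slc30 and Slc39 genes in vitro, at slice 1 day and at slice 3 weeks. Filled points were called and open points not. Slc30a1 is filled in vitro alone, and Slc39a14 at both slice times, at 3.92 and 2.65.

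Other genes that MTF1 is reported to control went in both directions. Of 6 tested, 3 rose and 2 fell in vitro against adult, and 3 rose and 1 fell in slices at each time, beside the shares of all genes called that are given with the importers. The list medians were 0.85 in vitro and 0.83, 0.74 and 1.05 in slices, beside -0.11, -0.06, -0.08 and -0.03 for all genes. Ndrg1, a gene also induced by low oxygen, had 0 counts in both adult libraries and 20.2 and 12.4 CPM at slice 1 day, at least 104-fold higher, and 2.50 and 2.72 CPM in vitro, at least 18.7-fold higher. Csrp1, a cytoskeletal protein, rose from 1.68 and 1.54 CPM in adult to 47.3 and 60.9 CPM in vitro, and Sepw1, a selenoprotein, from 79.0 and 68.7 to 415 and 415 CPM. Slc40a1, the iron exporter ferroportin, fell in vitro and in slices at each time, at 3 weeks to 17.1 and 16.5 CPM from 150 and 164 CPM in adult (-3.23 ± 0.20, edgeR adjusted p = 2.69e-06).

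Across the 10 libraries, the genes whose log2(CPM + 1) was most like that of Mt1, among 3913 whose mean log2 CPM was 5 or more, were Aprt (Pearson r = 0.99), Ube2l3, Tpd52, Anxa2 and Plk2 (0.98 each). Those most like Mt2 were Gpi1 (0.99), Pgam1, Vdac1, Eif4ebp1 and Gapdh (0.98 each), of which Gpi1, Pgam1 and Gapdh are glycolytic. For Slc30a1 they were Ptbp3 (0.97), Ninj1, Rab8b (0.95 each), Supt5 and Ripk1 (0.94 each), and for Mtf1 Ap1m1 (0.93), Mrpl10 (0.88), Lypla1 (0.86), Acot9 (0.84) and Pcnp (0.82). Mt1 and Mt2 were at r = 0.96, Slc30a1 at 0.51 with Mt1 and Mtf1 at 0.28 with Mt1. The 10 points are 5 groups of 2 that share preparation and depth, and these values are descriptions.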

How the data were processed

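Microglia in 10 libraries were profiled by the 10x Genomics 3' kit v2. The deposited values are raw UMI counts per gene and cell, which the authors made with Cell Ranger (1.3.0 and mm10 in the submitters' processing notes), without normalization. Columns not used numbered 0. Following the study's methods, cells were kept if mitochondrial UMIs made up at most 5%, if at least 400 genes were detected and if UMIs did not exceed 30000. The study's screen for outlying cells by t-SNE was not repeated, and no doublet caller was run. Counts were summed per library, and 12157 genes that passed edgeR's filter (minimum count 10) were fitted over all 10 libraries by edgeR 4.0.16 (TMM, quasi-likelihood test, limma 3.58.1, R 4.3.3), with calls at an adjusted p under 0.05 and a fold change over 1.5. The fit was also run on simulated counts with known changes, and the outcome is not given here. DESeq2 1.42.0, other scalings, filters, cell depths, covariates, a replicate block and leaving out each library were alternatives. Same-numbered libraries did not deviate together (correlations of -0.11 to 0.09, 0 of 10 pairs of groups over 0.1), so numbers were not taken as pairs.

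An exact permutation test of 2 libraries against 2 cannot go below p = 0.333 and was not used. UMIs from 1 library are counted molecules, and intervals and limits from them cover counting error only. The members and gene lists (other metallothioneins, Slc30 exporters, Slc39 importers, MTF1, copper, NRF2 and glucocorticoid genes, and cell markers) were chosen with earlier results of these data known. Named genes were the members, called list genes with the largest changes, and the genes most like the members over libraries (top 5) or cells (top 10). Malat1, Slc30a6, Slc30a7 and genes of the markers and gates were named outside that rule, after their values were seen. Symbols matched the reference names for 17611 of 18292. Python 3.11.15, numpy 2.4.6, scipy 1.17.1, pandas 2.3.3 and matplotlib 3.10.9 were used.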

Additional observations from a re-analysis of the deposited data

How the results depend on the processing

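Of 14 results with a test, 3 were called. Under the alternatives 176 of their values kept direction and side of the threshold, 14 newly passed it, 6 changed sign and 0 of the 3 calls was lost. Of the 14 that newly passed, 7 for Mtf1 and 4 for Slc30a1 came from alternatives other than leaving out a library. Of the 10 results with no test, which are descriptions, 115 values stayed within the replicate spread, 23 moved by more and 2 changed sign. Scaling to UMIs per cell shifts the median gene by 2.04 in vitro and 1.49, 1.10 and 1.05 in slices at 1 day, 1 week and 3 weeks against adult (log2). Under it Mtf1 was at 2.21 in vitro and 1.89, 1.66 and 0.91 in slices, Slc30a1 at 1.85 (1 day) and 1.48 (3 weeks), Mt1 at 4.32, 3.32 and 3.01 and Mt2 at 7.75, 6.79 and 6.15. Slice 3 weeks against 1 day gave Mt1 -1.31 and Slc30a1 -0.36, and in vitro against slice 3 weeks gave Mt1 1.33, Mt2 0.032, Slc30a1 1.73 and Mtf1 1.29. Library size alone gave Mtf1 -0.26 in vitro against adult and -0.60 at 3 weeks against 1 day, Mt2 6.09 at 1 day and Mt1 1.88 at 1 week. Thinned cells gave Mt1 2.97, Mt2 6.61 and Mtf1 0.70 at 1 day, and Slc30a1 -0.0032 and Mtf1 -1.03 at 3 weeks against 1 day. The study label as covariate gave Mt1 2.51 and Mt2 5.55 at 1 day and Mt1 1.86 at 1 week. Without S100a8/S100a9-rich cells Mt2 was at 6.27 at 1 day, and with no filter on low counts Slc30a1 was at 0.71 in vitro against slice 3 weeks. The causes were not tested.

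Leaving out each library gave, in vitro against adult, -0.0023 to 0.23 for Mtf1 and 0.91 to 1.40 for Slc30a1, called each time. At 1 day Mt1 ran from 2.65 to 2.88 and Mt2 from 6.16 to 6.31, at 1 week Mt2 from 4.59 to 6.11, and at 3 weeks Mt2 from 3.95 to 5.81 and Slc30a1 from 0.073 to 0.77. For 3 weeks against 1 day Mt1 ran from -1.20 to -0.54, Mt2 from -2.30 to -0.44, Slc30a1 from -0.28 to 0.41 and Mtf1 from -0.60 to -0.43. For in vitro against slice 3 weeks Mt1 ran from 0.021 to 0.67, Mt2 from -1.68 to 0.18 and Slc30a1 from 0.42 to 1.12. Without slice 3 weeks replicate 1, Slc30a1 was called against adult (adjusted p = 0.0231) and Mtf1 against 1 day (adjusted p = 0.0397), and without slice 3 weeks replicate 2 Slc30a1 was called in vitro against 3 weeks (adjusted p = 0.0107), all by edgeR. Leaving out 1 library leaves its group with 1, assumed to vary as the other groups do. The replicate block gave Slc30a1 1.08 in vitro against adult (edgeR adjusted p = 0.00944) and changed no call. Slice 1 week depth limits Slc30a1 and Mtf1, with 7 and 2 and with 18 and 12 UMIs.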

Other observations

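Of all 12157 genes tested, 22.4% were called higher and 28.5% lower in vitro against adult, 24.9% and 25.3% in slices of 1 day, 15.0% and 13.6% in those of 1 week and 17.9% and 17.5% in those of 3 weeks, with medians of -0.11, -0.06, -0.08 and -0.03 on the log2 scale. Of 13 NRF2 antioxidant genes tested, 9 rose and 1 fell in vitro against adult, 10 rose and 1 fell at slice 1 day, 7 rose and 1 fell at 1 week and 8 rose and 0 fell at 3 weeks by edgeR (DESeq2 also had 0 lower, and each had 1 lower at an unadjusted p under 0.05), with list medians of 1.31, 2.69, 1.65 and 1.16 on the log2 scale. Hmox1, the haem-degrading enzyme, rose from 31.7 and 26.3 CPM in adult to 1691 and 1934 CPM at slice 1 day (5.96 ± 0.37, edgeR adjusted p = 1.70e-06) and was at 348 and 346 CPM at 3 weeks. From 1 day to 3 weeks 9 of the 13 fell (12.8% of all genes) and 0 rose (13.9% of all genes) by edgeR and by DESeq2, with 1 higher at an unadjusted p under 0.05 in each. In the top tertile of slice cells by Mt1 and Mt2, a split chosen after seeing the data, Hmox1 was higher than in the bottom tertile in 6 of 6 libraries, by a ratio of 1.89 to 10.98.

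The counts of the next lists are to be read beside the same shares, and several lie near them. Of 12 tested genes of copper handling, 5 rose in vitro, 4 at slice 1 day, 2 at 1 week and 2 at 3 weeks against adult, and 0 fell by edgeR or DESeq2. At an unadjusted p under 0.05 edgeR had 1, 0, 2 and 1 lower. Atox1, a copper chaperone, and Sod1, a copper- and zinc-binding superoxide dismutase, were called higher in all 4 comparisons by edgeR. Of 10 glucocorticoid target genes, 2 rose and 5 fell in vitro, 3 rose and 4 fell at slice 1 day, 0 rose (0 at an unadjusted p under 0.05 by edgeR, 1 by DESeq2, which called 0) and 3 fell at 1 week, and 1 rose and 2 fell at 3 weeks. Nr3c1, the glucocorticoid receptor gene, and Sult1a1, a sulfotransferase, fell in all 4, and Dusp1, a phosphatase of stress kinases, rose from 2.56 and 5.53 CPM in adult to 102 and 58.4 CPM at slice 1 day.

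Markers of other cells were also summed. Neuronal markers ran from 0.454 to 2.21 CPM in adult and in vitro libraries and from 2.73 to 58.3 CPM in slices, oligodendrocyte markers from 45.6 to 155 CPM, endothelial markers from 3.23 to 33.7 CPM and monocyte markers from 0 to 850 CPM, highest in slice 1 week replicate 1.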
